A study of Mus musculus with 3 samples.

Results

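The S100 and annexin genes described here are S100a4, S100a6, S100a8, S100a9, S100a10, S100a11, Anxa1, Anxa2 and Anxa5, chosen by symbol, 9 of the 31053 genes listed in the deposited tables. S100 proteins are small calcium-binding proteins, and annexins bind membranes in a calcium-dependent way. Members of both families act in pairs: S100A8 and S100A9 form calprotectin, an antimicrobial complex stored in neutrophils, S100A10 joins annexin A2 in a complex at the cell membrane, and S100A11 binds annexin A1. S100A4 and S100A6 are known from migrating cells, leukocytes among them, annexin A1 from the resolution of inflammation, and annexin A5 from its binding of phosphatidylserine on dying cells.

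The cells were tdTomato+ myeloid cells sorted from the hippocampi of mice of genotype Cx3cr1CreERT2/+; Rosa26tdTomato/+; NestinTK-eGFP/+, which had received tamoxifen at 100 mg/kg on 4 days. Cx3cr1, which drives the inducible Cre, is active in microglia, in macrophages at the borders of the brain and in some blood leukocytes. The 3 runs, each 1 library of the 10x Genomics droplet method, carry the same genotype and treatment, so no group is untreated or wild-type. The series names 12 animals, 6 male and 6 female, and gives no animal for any run, so the spread between runs may be technical. Each captured RNA molecule was counted by its molecular identifier (UMI).

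Of 20376 barcodes, 19791 passed a filter (1000 or more UMIs, 500 or more genes and no more than 10% of UMIs from mitochondrial genes), with 6993, 6720 and 6078 cells in runs 1, 2 and 3. The median depth was 4425, 3438 and 3696 UMIs per cell in that order, and any 2 runs shared 7 or 8 barcodes. Cells were put into classes by how many markers of a list had a UMI, and no S100 or annexin gene is on any list. A cell that met several rules took the first class in a fixed order. T or NK and monocyte or neutrophil came first, then choroid plexus, border macrophage, MHC class II-high and Emp3-positive. Cycling, interferon-responsive, disease-associated, chemokine and immediate early followed. Cells with at least 6 of 8 microglia markers and no other class numbered 17485 and are called other microglia. The remaining classes used here are Emp3-positive cells, with UMIs of all of Emp3, Fxyd5 and Tnfsf13b (64 cells), MHC class II-high cells, with all of H2-Aa, H2-Ab1, H2-Eb1 and Cd74 (94 cells), border macrophage (151 cells), T or NK (13 cells), monocyte or neutrophil (10 cells), disease-associated (167 cells), interferon-responsive (179 cells), chemokine (71 cells), cycling (62 cells) and immediate early (1224 cells, 1183 of them in run 3). All 64 Emp3-positive cells had more than 4 of the 8 microglia markers, against 45 of the 94 MHC class II-high cells and 84 of the 151 border macrophages. Cells holding Xist together with a Y-linked gene can be doublets of a female and a male cell. They made up 19.9% of border macrophages, 15.4% of T or NK cells (2 of 13), 6.38% of MHC class II-high cells and 2.31% of other microglia.

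The genes lie in a few places of the mouse genome. All 6 S100 genes are on chromosome 3 within 2960873 bases (GENCODE M21, GRCm38, positions counted from 1). S100a4 (ENSMUSG00000001020, chr3:90603771-90606045, plus strand) and S100a6 (ENSMUSG00000001025, chr3:90612882-90624181, plus strand) are 6836 bases apart. S100a8 (ENSMUSG00000056054, chr3:90668978-90670035, plus strand) and S100a9 (ENSMUSG00000056071, chr3:90692632-90695721, minus strand) are 22596 bases apart. S100a11 (ENSMUSG00000027907) starts at chr3:93520488 and S100a10 (ENSMUSG00000041959) at chr3:93555080. Anxa5 (ENSMUSG00000027712, chr3:36448923-36475894, minus strand) is on the same chromosome, Anxa2 (ENSMUSG00000032231, chr9:69453620-69491795, plus strand) is on chromosome 9 and Anxa1 (ENSMUSG00000024659, chr19:20373428-20390944, minus strand) is on chromosome 19. All are protein-coding. The deposited values count a whole gene and cover all of its exons.

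S100a4 and S100a6 are neighbours that mostly shared their cells within the MHC class II-high class, and S100a8 and S100a9 are neighbours whose UMIs were in the same few barcodes, so the bases before these 4 starts are shown for comparison. They come from the RefSeq promoter table (GRCm38.p6), which held 8 of the 9 genes, are written 5′ to 3′ on the gene's strand, and stop before the GENCODE gene start. The stretches are chr3:90603520-90603769, chr3:90612644-90612881, chr3:90668821-90668977 and chr3:90695722-90695971 (minus strand). Capitals mark matches on either strand to 4 motifs, which are TATAAA for the TATA box, GAGGAA for PU.1, TTNNGCAA for C/EBP and TGANTCA for AP-1.
S100a4: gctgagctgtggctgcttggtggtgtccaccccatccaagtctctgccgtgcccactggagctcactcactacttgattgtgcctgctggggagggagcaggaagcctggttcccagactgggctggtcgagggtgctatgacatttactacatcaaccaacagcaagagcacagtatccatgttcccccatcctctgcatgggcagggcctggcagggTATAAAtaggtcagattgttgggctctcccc
S100a6: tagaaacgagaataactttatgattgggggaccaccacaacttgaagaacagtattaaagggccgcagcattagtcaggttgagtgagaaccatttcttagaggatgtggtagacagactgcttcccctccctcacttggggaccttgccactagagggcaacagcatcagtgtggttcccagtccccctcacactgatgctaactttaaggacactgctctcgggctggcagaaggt
S100a8: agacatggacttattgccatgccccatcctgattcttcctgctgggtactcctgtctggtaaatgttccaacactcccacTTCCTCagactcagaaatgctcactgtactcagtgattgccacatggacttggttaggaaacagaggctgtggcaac
S100a9: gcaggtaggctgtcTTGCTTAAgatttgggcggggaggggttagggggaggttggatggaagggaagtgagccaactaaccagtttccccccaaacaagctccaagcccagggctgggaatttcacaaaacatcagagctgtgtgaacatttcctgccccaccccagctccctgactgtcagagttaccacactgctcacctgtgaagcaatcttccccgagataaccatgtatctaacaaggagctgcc
S100a4 had 1 TATA match, which 12.4% of 32851 promoters have in a stretch of that length. S100a8 had 1 PU.1 match on the opposite strand (15.3% of promoters in 157 bases), S100a9 had 1 C/EBP match on the opposite strand (9.56% in 250 bases), and S100a6 had none in 238 bases. No matches overlapped, and neither pair shared a motif. A match is a description of letters and not a binding site.

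S100a8 and S100a9, the calprotectin pair, were read together in a few cells of run 1 and almost nowhere else. Among the 19791 kept cells, 2 cells had UMIs of both genes, 3 had S100a8 only and 3 had S100a9 only. The 2 cells with both held 95 of the 98 S100a8 UMIs and 129 of the 132 S100a9 UMIs, and each of the other 6 cells held a single UMI. One had 91 S100a8 and 113 S100a9 UMIs among 1177 UMIs, and the other had 4 and 16 among 1329. Both belonged to run 1, which had 96 S100a8 and 132 S100a9 UMIs in all. Run 2 had 1 S100a8 UMI, run 3 had 1, and neither had a UMI of S100a9. The product of the separate shares gives 0.00126 cells with both.

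The barcodes below the depth filter held more of the same kind. Over all 20376 barcodes, 12 had at least 5 UMIs of the pair. All 12 had both genes and were in run 1, and 10 of them were left out by the filter because they had only 502 to 650 UMIs. S100a8 ranged from 4 to 91 UMIs per barcode (median 54) and S100a9 from 12 to 113 (median 59). The ratio of S100a9 to S100a8 had a median of 1.11 and ranged from 0.545 to 4. The pair made up a median of 18.1% of a barcode's UMIs, from 1.5% to 37.5%. Runs 2 and 3 had 175 and 148 barcodes left out by the filter, none with both genes.

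Markers placed these barcodes apart from the T or NK cells and from microglia. Of 16 neutrophil markers, 12 had a UMI in the 12 barcodes, with 3 to 8 markers per barcode. The highest were Camp with 235 UMIs, Ngp with 125 and Lcn2 with 85, all of them granule proteins, each present in 10 of the 12. Mmp8, Csf3r, Hdc and Il1r2 were at 0. Of 8 monocyte markers 3 had a UMI: Chil3 with 30, Plac8 with 7 and Ly6c2 with 3. Of 13 T or NK markers 1 had a UMI, a single Nkg7 UMI. All 8 microglia markers were at 0. The barcodes were picked by their S100a8 and S100a9 UMIs, so these values describe them and test nothing.

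The converse held in part. In kept cells of run 1, 3 had at least 3 neutrophil markers, of which 2 had both genes and 1 had neither. The cell with neither had 6 of 8 microglia markers and no UMI of any of the 9 genes. Of 12 such barcodes left out by the filter in run 1, 10 had both genes and 1 had neither. Runs 2 and 3 had no barcode with 3 or more neutrophil markers. Levels are given as CPM, the usual scaling of UMIs summed over cells to a common total. Among the 13 T or NK cells no UMI of S100a8 or S100a9 was read, which allows up to 44.9 CPM of each by a limit of 3 counts. All limits and intervals here cover counting error only. In 9 kept cells with at least 3 monocyte markers there was 1 S100a8 UMI and no S100a9 UMI, beside 166 S100a6 UMIs. Of these 9, 2 were T or NK cells of run 3, with 0 and 6 S100a6 UMIs, and 2 cells of run 2 had 64 and 70. Other microglia had 1 S100a8 and 2 S100a9 UMIs in 17485 cells (0.00572% and 0.0114% of cells). When cells were instead clustered without any S100 or annexin gene, both kept cells fell in a cluster of 20 cells named for T or NK markers, which also held all 13 T or NK cells, and the pair's levels of that cluster (1268 CPM of S100a8 and 1735 CPM of S100a9) came from them but for 1 S100a9 UMI.

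**Figure D1:**
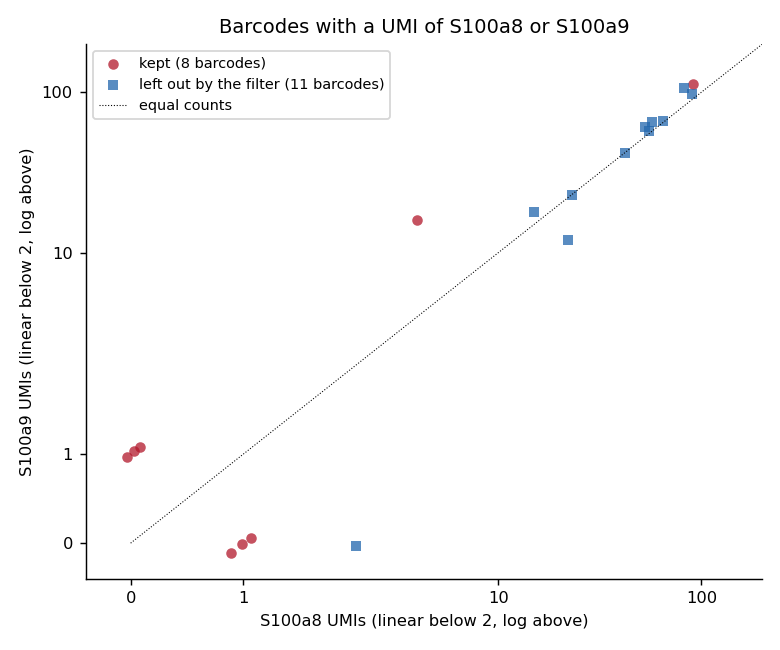
Every barcode with a UMI of either gene, with S100a8 UMIs on the x axis and S100a9 UMIs on the y axis (both linear below 2 and logarithmic above, counts of 0 and 1 spread slightly to separate points). The 10 barcodes left out by the filter that have both genes and 1 of the kept cells lie near the line of equal counts, the other kept cell has 4 and 16, and the remaining barcodes hold a single gene with 1 or 2 UMIs.

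S100a4 and S100a6 were concentrated in the leukocyte and MHC class II-high classes. Of the 670 S100a6 UMIs in kept cells, 596 (89.0%) were in the 117 T or NK, monocyte or neutrophil and MHC class II-high cells, which are 0.591% of cells. For S100a4 it was 393 of 620 UMIs (63.4%), for Anxa1 55 of 61 (90.2%) and for Anxa2 146 of 234 (62.4%). S100a11 (36.7%), S100a10 (18.6%) and Anxa5 (10.5%) had smaller parts of their UMIs there, and other microglia held 54.2%, 69.6% and 65.9% of the UMIs of these 3 genes. For S100a4, by contrast, other microglia held 31.6%, and for S100a6 7.46%.

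**Figure D2:**
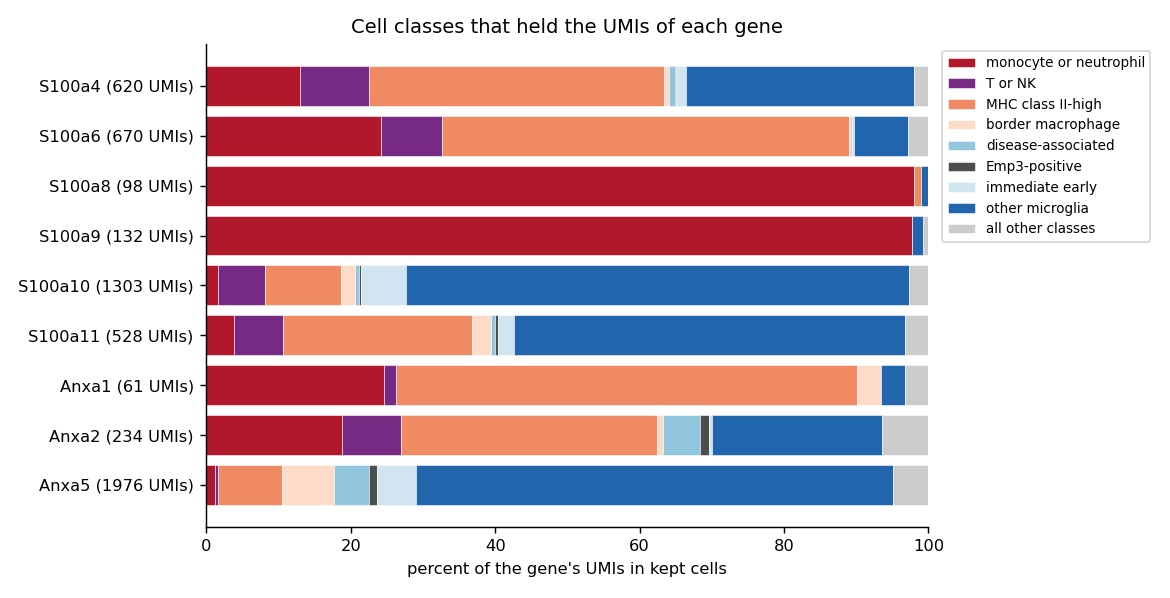
Percent of each gene's UMIs in kept cells that fell in each class (stacked bars adding to 100, with the number of UMIs of each gene beside its name). The red, purple and orange parts are the 117 leukocyte and MHC class II-high cells, which hold 89.0% of S100a6 UMIs and 10.5% of Anxa5 UMIs.

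In MHC class II-high cells, S100a6 was at 255, 142 and 820.5 CPM in runs 1, 2 and 3 (406 ± 363, mean ± SD, n = 3 runs). Other microglia were at 0.496, 0.564 and 1.26 CPM, so every run of one class lay above every run of the other. S100a4 was at 148, 102 and 557 CPM against 2.84, 2.82 and 2.58, again without overlap. Run 3 was highest for both genes. In runs 1 and 2 few cells held these UMIs, so the levels of these runs do not describe most cells of the class. The S100a6 UMIs were 33 in a cell and 5 in another in run 1, and 19 and 2 in run 2. The S100a4 UMIs of run 2 were 14 and 1 in the same 2 cells. The S100a6 UMIs sat in 22 of the 94 cells (23.4%, exact binomial 95% interval 15.3 to 33.3%), and in other microglia 47 of 17485 cells (0.269%) had one, at median depths of 5574.5 and 3807 UMIs. After each cell was thinned to 2000 UMIs, with 4 and 527 shallower cells left out, the shares were 16.7% and 0.177%. Within this class S100a4 and S100a6 were mostly in the same cells: 19 MHC class II-high cells had both, 3 had S100a4 only and 3 had S100a6 only, where independent shares would give 5.15 with both.

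S100a10, the partner of annexin A2, was at 101, 67.8 and 289 CPM in MHC class II-high cells against 12.7, 13.2 and 12.6 in other microglia. S100a11 was at 73.9, 102 and 289 CPM against 4.13, 3.86 and 4.13. Anxa5 was at 141, 312 and 281 CPM against 19.2, 20.6 and 14.2. None of these ranges overlapped. The S100a10 UMIs of run 2 were 9 in the MHC class II-high cell that had 19 of S100a6, and 1 in another. Anxa2 was at 33.6, 33.9 and 188 CPM against 0.661, 1.04 and 0.631, and Anxa1, the S100A11 partner, was at 20.2, 27.1 and 82.6 CPM, with 39 UMIs in MHC class II-high cells against 2 in all other microglia. From those UMIs the ratio of Anxa1 levels was 2016 (95% interval of the counts 522 to 17240).

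edgeR's quasi-likelihood test on UMIs summed by class and run, with Benjamini-Hochberg adjustment over 5313 genes and an adjusted p of 0.05 as the threshold, called 5 of the 5 tested genes higher in MHC class II-high cells, where 20% of all tested genes were called higher. The log2 changes were 9.23 ± 0.30 (SE) for S100a6, 6.68 ± 0.43 for S100a4, 5.47 ± 0.51 for S100a11, 4.15 ± 0.27 for Anxa5 and 3.95 ± 0.33 for S100a10. Their adjusted p-values by edgeR in that order were 9.31e-25, 2.14e-16, 3.32e-11, 2.27e-16 and 5.52e-13. The count supports nothing by itself, because a gene was tested only if at least 3 class sums reached 48.2 CPM, and S100a4, S100a6, S100a10 and S100a11 reached it in the 3 MHC class II-high sums and in no other. Without that filter all 9 genes were tested among 18546. Then 7 were called higher in MHC class II-high cells (background 8.36%), with log2 changes of 9.33 ± 0.69 for Anxa1 and 6.81 ± 0.46 for Anxa2, and S100a8 and S100a9 were not.

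These MHC class II-high cells were not all alike. The 49 with 4 or fewer microglia markers had 354 of the 377 S100a6 UMIs, at 967 CPM, and the 45 with more than 4 had 23, at 72.4 CPM. For Anxa5 the same split gave 317 and 189 CPM. Among the 49, 13 had a UMI of a dendritic cell marker (Flt3, Zbtb46, Xcr1, Clec9a, Cd209a, Itgae or Ccr7), 11 of them in run 3. S100a6 was present in 12 of these 13 and in 5 of the other 36. S100a4 gave the same counts, 12 and 5. Anxa5 was present in 12 of 13 and 24 of 36, with 305 and 328 CPM. The cells with a dendritic marker were also deeper, at a median of 13472 against 5396.5 UMIs, and a deeper cell has more chance of a marker UMI. Thinned to 2000 UMIs, with 4 shallower cells left out, S100a6 was present in 10 of 13 and 3 of 32, and Anxa5 in 6 of 13 and 12 of 32.

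Markers of other leukocytes moved with the class. The 8 monocyte markers summed to 195, 312 and 733 CPM in MHC class II-high cells of runs 1 to 3, and the 7 dendritic markers to 155, 74.5 and 679 CPM, both highest in run 3 as S100a6 was. In other microglia the summed levels over all runs were 4.6 and 6.86 CPM. Of the monocyte markers, Ly6c2, Chil3, Vcan and F10 were at 0 in MHC class II-high cells, and of the dendritic markers only Ccr7 was. Their part in the S100 and annexin levels was not tested. The edgeR calls for the 5 tested genes were kept without run 3. That does not set these markers apart from the calls, because cells with a dendritic marker remained. The run 1 cell with 33 S100a6 UMIs had 1 dendritic marker, and the run 2 cell with 19 had 2.

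**Figure D3:**
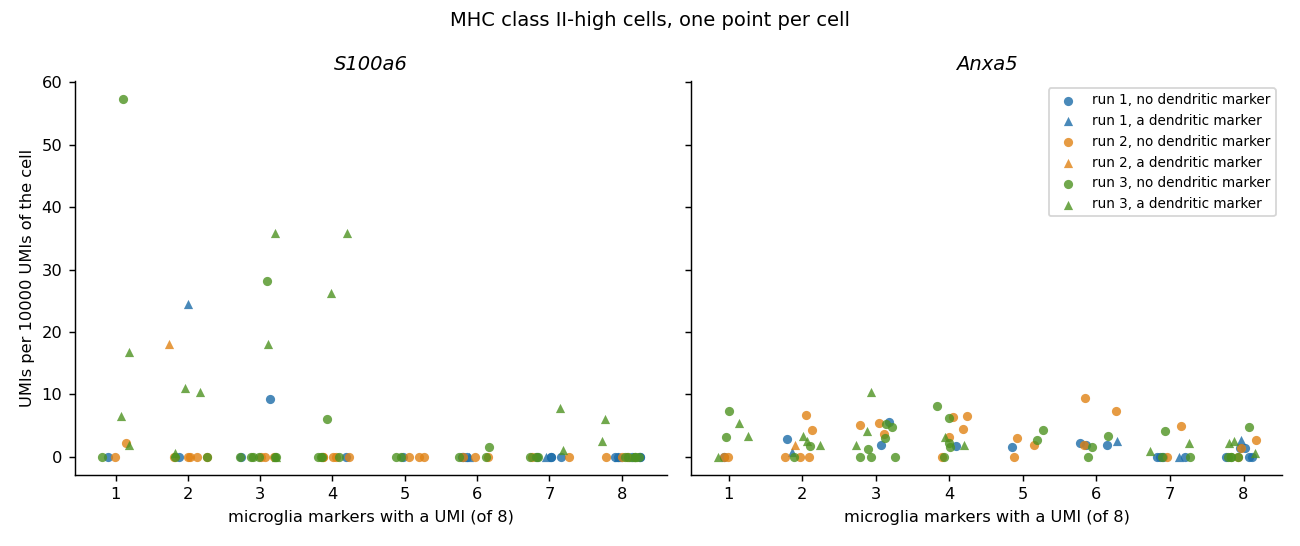
MHC class II-high cells, one point per cell, with the number of the 8 microglia markers that had a UMI on the x axis (spread slightly) and S100a6 or Anxa5 UMIs per 10000 UMIs of the cell on the y axis. Colours are runs and triangles are cells with a dendritic marker. The highest S100a6 values sit at 4 or fewer microglia markers, mostly in triangles although the top one is a run 3 cell without a dendritic marker, while Anxa5 is spread over cells with few and with many microglia markers.

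T or NK cells and monocyte or neutrophil cells were too few per run for a test. In the 13 T or NK cells, 2, 3 and 8 in runs 1 to 3, S100a10 was at 1017, 1237 and 1374 CPM and every cell had a UMI of it. S100a11 was at 475, 265 and 638 CPM with a UMI in 12 cells. S100a4 was at 1966, 1059.9 and 466 CPM in 8 cells, and S100a6 at 610.1, 1589.8 and 736 CPM in 10 cells. Single cells held many of the 60 S100a4 UMIs. A run 1 cell had 27 and a run 2 cell had 7, both with all 8 microglia markers, and a run 3 cell had 17. Anxa2 was at 136, 88.3 and 393 CPM and Anxa5 at 203, 0 and 98.2 CPM. Anxa1 had 1 UMI. For S100a4, S100a6, S100a10, S100a11 and Anxa2, each run of T or NK cells lay above each run of other microglia. For Anxa5 it did not, since run 2 had none in 3 cells.

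Of the 10 monocyte or neutrophil cells, the 2 with high S100a8 and S100a9 had 1 S100a6 UMI each and no S100a4. Of the 4 cells of run 2, 2 were high in the other genes: one with all 8 monocyte markers had 70 S100a6, 36 S100a4, 26 Anxa2, 11 Anxa5 and 9 Anxa1 UMIs among 12758, and one with 6 monocyte markers had 64 S100a6, 38 S100a4 and 12 Anxa2 UMIs among 8278. The other 2 cells of run 2 had 4 monocyte markers each, no S100a4, and 1 and 3 S100a6 UMIs. The 3 cells of run 3 had 2, 18 and 2 S100a6 UMIs. S100a6 was present in 9 of the 10 cells, S100a8 in 3 and S100a9 in 2. In the single monocyte cell with S100a8 it was 1 UMI.

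Border macrophages had little S100a4 and S100a6 and more Anxa5. S100a4 was at 1.26, 0 and 13 CPM from 4 UMIs and S100a6 at 0, 0 and 8.66 CPM from 2 UMIs in 1 cell, and both overlapped other microglia. Anxa5 was at 93.5, 128 and 234 CPM, above every run of other microglia, and 80 of the 151 cells had a UMI of it. edgeR called 2 of the 5 tested genes higher here, against 12.5% of all genes. They were Anxa5, with a log2 change of 3.07 ± 0.28 (adjusted p 5.40e-12), and S100a11, with 1.86 ± 0.68 (adjusted p 0.0459), which was at 5.05, 9.14 and 39 CPM. The S100a11 call was lost without run 2 (adjusted p 0.108), without run 3 (0.764), without the run as a block (0.0804), with 1 more marker required per class (0.393), with clusters in place of classes (0.307) and with a stricter cell filter (0.151), and 12 of its 14 UMIs were in the 67 cells with 4 or fewer microglia markers. S100a10 was at 17.7, 45.7 and 30.3 CPM, also above each run of other microglia, and missed the threshold in edgeR (log2 change 1.07 ± 0.44, adjusted p 0.0776). It passed when the possible doublets of both sexes were left out (1.33, adjusted p 0.0478) and with clusters (1.35, adjusted p 0.0457). Anxa1 and Anxa2 had 2 UMIs each. Without the filter on low counts 3 of 9 genes were called higher (background 5.34%), with Anxa1 added on those 2 UMIs. The monocyte markers summed to 13.9, 9.14 and 139 CPM in runs 1 to 3 of border macrophages, highest in run 3 as S100a11 was, and their part was not tested. In the border macrophages with 4 or fewer microglia markers Anxa5 was at 193 CPM and in the others at 104 CPM.

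Among the microglial states, Anxa5 was called in disease-associated and Emp3-positive cells, and Anxa2 in disease-associated cells where it was tested. In disease-associated cells, a state known for genes of lipid handling such as Lpl, Anxa5 was at 98.2, 60.1 and 96.5 CPM against 19.2, 20.6 and 14.2 in other microglia. All 3 runs were higher and 54 of 167 cells (32.3%) had a UMI, against 6.76% of other microglia. A single cell held 16 of the 95 UMIs. Thinned to 2000 UMIs the shares were 14.4% and 3.21%. By run they were 17.8, 15 and 5.88% against 3.31, 3.75 and 2.35%. edgeR gave a log2 change of 2.36 ± 0.30 (adjusted p 1.28e-07) and called 1 of the 5 tested genes higher, against 12.6% of all genes. Anxa2 was at 5.36, 12 and 24.1 CPM with 12 UMIs, against 0.661, 1.04 and 0.631, a ratio of 14 (95% interval of the counts 6.84 to 26.5). It did not pass the filter on low counts, and without the filter its log2 change was 3.79 ± 0.67 (adjusted p 6.37e-06) and 2 of 9 genes were called (background 3.32%). S100a10 was lower in level in each run (3.57, 6.01 and 9.65 CPM against 12.7, 13.2 and 12.6) and missed the threshold in edgeR (log2 change -1.08 ± 0.63, adjusted p 0.232). S100a6 had no UMI in 167 cells, which allows up to 2.73 CPM, above the 0.707 CPM of other microglia, so a difference was not detectable at this depth.

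Emp3-positive cells had few UMIs of the genes that stood high in leukocytes, with 1 UMI of S100a4 and 1 of S100a6 in 64 cells, 2 of S100a11, 4 of S100a10, 3 of Anxa2 and none of S100a8, S100a9 or Anxa1. A count of 0 allows up to 8.12 CPM here. The upper exact Poisson limit of the S100a6 level was 15.1 CPM, below the 142 CPM of the lowest MHC class II-high run. The limit covers counting error and not the spread between cells. The S100a6 UMIs of that MHC class II-high run were 19 in a cell and 2 in another. Cells that also met the T or NK, monocyte or neutrophil, border macrophage or MHC class II-high rule had been put in those classes first. The 3 Emp3 list markers summed to 1535 CPM in monocyte or neutrophil, 1075 in MHC class II-high and 1063 in T or NK cells, against 899 here. Tnfsf13b had no UMI in T or NK cells, so none of them met the Emp3-positive rule. For the other classes, low levels of leukocyte markers and genes here can in part be set by that order. The summed levels do not give how many of their cells met the rule, and this was not tested. All 13 T or NK markers were at 0 in the Emp3-positive cells, as were 15 of 16 neutrophil, 6 of 8 monocyte and 6 of 7 dendritic markers. The monocyte list summed to 79.1, 0 and 0 CPM in runs 1 to 3, from Plac8 (11 UMIs) and Fn1 (6 UMIs), against 4.6 CPM in other microglia. Markers of other states were also higher in these cells: over all runs interferon-responsive markers summed to 1264 CPM against 73.1, cycling markers to 517 against 8.36 and disease-associated markers to 346.5 against 49.1. Their part in the Anxa5 level was not tested. Anxa5 was at 60.5, 93.7 and 44.3 CPM, above every run of other microglia, from 13, 6 and 4 UMIs. edgeR gave a log2 change of 1.90 ± 0.54 (adjusted p 0.0307) and called 1 of the 5 tested genes, against 3.97% of all genes, and 1 of 9 without the filter (background 1.13%). The call was lost without run 1 (1.92, adjusted p 0.399), without run 2 (1.81, adjusted p 0.127) and with a stricter cell filter (1.81, adjusted p 0.0746). Grouped by clusters in place of markers, the cells led by Klf2, Emp3 and Fxyd5 numbered 1442 and had Anxa5 at 35.2, 34.2 and 29.7 CPM and S100a10 at 28, 23.9 and 18.7 CPM. Their S100a6 was at 0.451, 1.09 and 1.70 CPM, below every MHC class II-high run. The grouping by clusters used a resolution chosen after others were tried, and 21 of the 64 Emp3-positive cells were in this cluster.

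No gene of the group passed the threshold in the other 4 states, where edgeR called 14.6% of genes higher in cycling, 2.56% in interferon-responsive, 3.75% in chemokine and 0.489% in immediate early cells. At an unadjusted edgeR p under 0.05, in either direction, there were 1879 of 5313 genes in cycling and 384 in interferon-responsive cells. There were 858 in chemokine and 116 in immediate early cells. The counts of members at that limit were 0 of 5 in the first 3 and 2 of 5 in immediate early cells, where S100a4 and S100a6 were the 2, both lower. Immediate early cells outside run 3 numbered only 16 and 25 and had no UMI of either gene. Anxa5 in interferon-responsive cells was at 30.6, 22.4 and 34.1 CPM, above other microglia in each run, with a log2 change of 0.77 ± 0.46 (adjusted p 0.838). In cycling cells it was at 26.9, 22.7 and 21 CPM, and in chemokine cells at 0, 56.2 and 6.85 CPM. S100a11 had no UMI in cycling and chemokine cells, which allows up to 6.76 and 8.44 CPM, above the 4.04 CPM of other microglia. None of the 5 tested genes was called lower in any class, with 8.71% of genes called lower in border macrophages, 15% in MHC class II-high, 0.565% in Emp3-positive, 9.86% in cycling, 0.0376% in interferon-responsive, 10.1% in disease-associated, 1.04% in chemokine and 0% in immediate early cells.

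**Figure D4:**
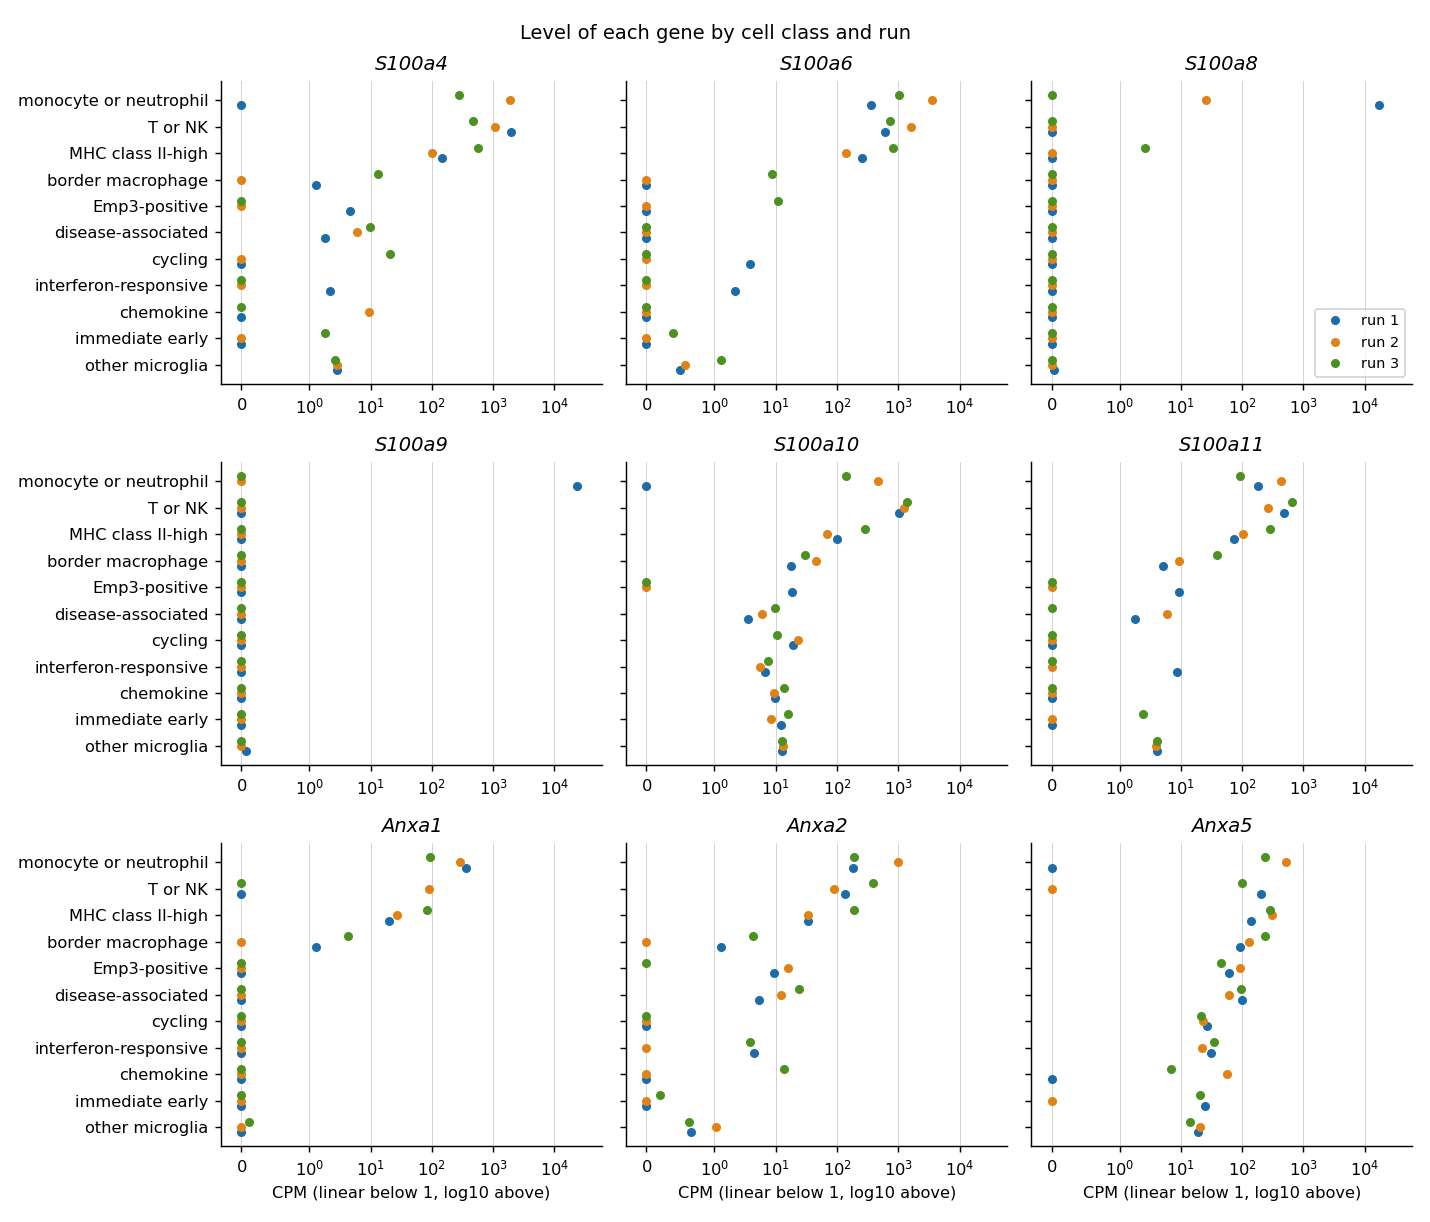
CPM of each gene (x axis, linear below 1 and logarithmic above) in each class (y axis), with one point per run. S100a8 and S100a9 stand high in 1 run of the monocyte or neutrophil class, S100a4 and S100a6 are high in the 3 top classes (except S100a4 in run 1 of the monocyte or neutrophil class), and Anxa5 is spread over border macrophage, disease-associated and Emp3-positive cells as well.

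**Figure D5:**
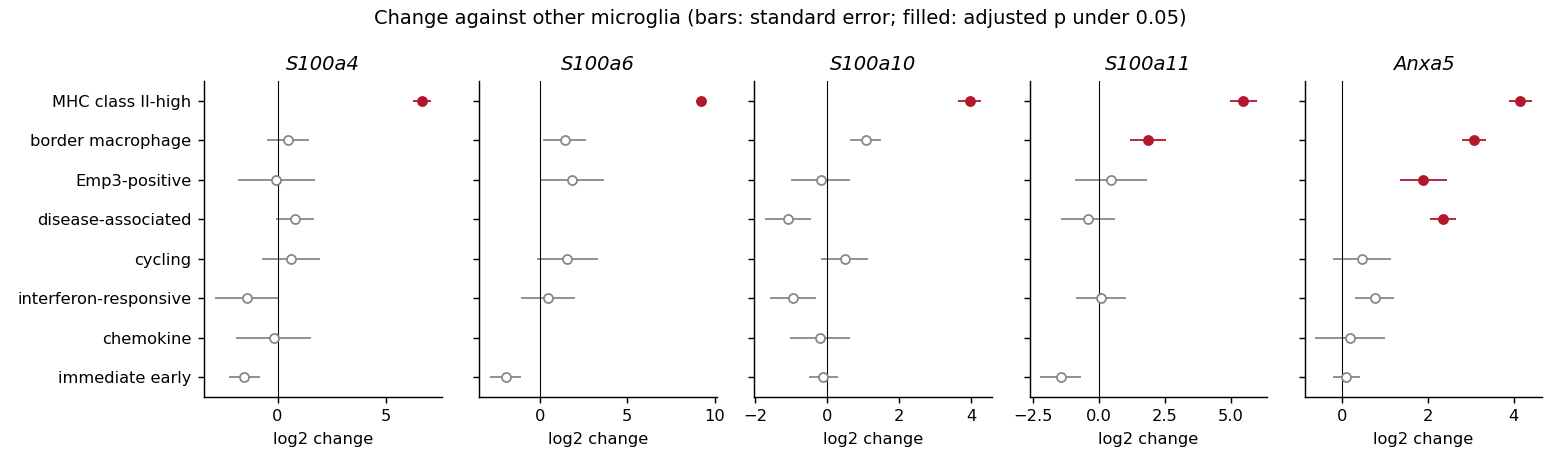
Log2 change against other microglia (x axis) of the 5 tested genes in 8 classes (y axis), with bars of 1 standard error; filled red points have an adjusted p under 0.05 by edgeR, and a gene without a UMI in a class has no point. All 5 are filled in MHC class II-high cells, and Anxa5 alone is filled in disease-associated and Emp3-positive cells.

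Ordered by mean level over runs among the 9 classes of the fit, Anxa5 was at 245 ± 91 CPM in MHC class II-high cells, 152 ± 73.2 in border macrophages, 84.9 ± 21.5 in disease-associated, 66.2 ± 25.2 in Emp3-positive, 29 ± 5.99 in interferon-responsive, 23.5 ± 3.04 in cycling, 21 ± 30.7 in chemokine, 18 ± 3.34 in other microglia and 15.1 ± 13.2 in immediate early cells (SD, n = 3 runs). Each of the first 4 overlapped its neighbour in the range of runs. Emp3-positive and interferon-responsive cells did not overlap, and from there on each class overlapped the next. Cells with choroid plexus markers, outside the fit, were at 88 ± 9.04 CPM. S100a10 ran from 1209 ± 180.3 CPM in T or NK cells through 153 ± 119 in MHC class II-high cells and 31.2 ± 14 in border macrophages to 12.8 ± 0.360 in other microglia, and neighbours among these 4 classes did not overlap. S100a11 ran from 459 ± 187 CPM in T or NK cells through 155 ± 117 in MHC class II-high cells and 17.7 ± 18.5 in border macrophages to 4.04 ± 0.156 in other microglia. Its first 2 overlapped and the later ones did not. Classes left out of these orders overlapped them. Monocyte or neutrophil cells ranged from 0 to 463 CPM of S100a10 and from 93.5 to 438 CPM of S100a11. Cycling cells ranged from 10.5 to 22.7 CPM of S100a10, which overlapped border macrophages and other microglia.

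Related genes were also called in MHC class II-high cells. Of 11 other S100 genes 1 was tested, S100a13, and it rose by a log2 change of 0.99 ± 0.24 (adjusted p 0.000974 by edgeR). Of 9 other annexins 3 were tested: Anxa6 rose by 2.13 ± 0.39, Anxa7 rose by 0.91 ± 0.29, and Anxa3 fell by 0.82 on the log2 scale. Anxa3 was at 417, 298 and 297 CPM in these cells and at 702, 721 and 833 CPM in other microglia. The median change of the 3 was 0.91, against -0.03 over all tested genes. Of 12 partners and receptors 7 were tested, and 5 rose (among them Ahnak, Cd36, Myh9 and Cacybp) and none fell, with a median of 0.91, where 20% of all tested genes were called higher. In the fit, Ahnak and Cd36 reached the 48.2 CPM of the filter only in sums of MHC class II-high cells and border macrophages, so their calls in these 2 classes are no support. Ahnak, a large scaffold protein bound by the S100A10 and annexin A2 complex, had 127 UMIs against 2 in other microglia, a ratio of levels of 6566 (95% interval of the counts 1781 to 54810), at 67.2, 20.3 and 294 CPM. Cd36, a scavenger receptor, had 36 UMIs against 10, a ratio of 372 (181 to 841). S100a13 lost its call without run 3, and Anxa7 and Cacybp lost theirs without run 2 and without run 3, Cacybp also without the run block.

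In border macrophages 3 of the 7 tested partners rose (12.5% of all genes), among them Cd36 (96 UMIs, ratio 600, 312 to 1290) and Ahnak (37 UMIs, ratio 1156, 298 to 9897). Anxa6 rose by 1.12 ± 0.41, a call lost without run 1 and without the run block, and Anxa3 fell by 1.14 on the log2 scale, at 397, 274 and 225 CPM. In disease-associated cells 2 of 7 partners rose (12.6% of all genes), among them Cd36 on 5 UMIs, a call lost without run 2 and with 1 more marker. In Emp3-positive cells 1 of 7 was called higher (3.97% of all genes), Cd36 on 3 UMIs, all in run 1, and its log2 change turned to -2.24 with clusters and -1.91 with a stricter cell filter. In cycling cells Myh9, a myosin heavy chain bound by S100A4, rose by 0.85 ± 0.24, while Plgrkt, a plasminogen receptor, fell by 0.92 and Tlr4, a receptor of the S100A8 and S100A9 complex, fell by 1.08 on the log2 scale. Leaving out run 2 ended the Myh9 call, leaving out run 1 ended the Plgrkt and Tlr4 calls, and leaving out run 3 ended that of Tlr4. Without the run block the Myh9 and Tlr4 calls were lost as well. No partner was called in interferon-responsive, chemokine or immediate early cells.

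Over the 27 class-by-run sums, the genes most like each tested member by Pearson correlation of log2(CPM + 5), among 8071 genes, were as follows. For S100a6 they were Gpr141 (r = 0.98), Itgb7 (0.97) and Napsa (0.97), and for S100a4 Gpr141, Jaml and Napsa (0.93 each). S100a11 was most like Pfkp (0.95), Ccr2 (0.94) and Olfm1 (0.94), and S100a10 most like Gsn (0.89), Adgre5 (0.88) and Mcub (0.87). Anxa5 was most like Lyz2, Fth1 and Naca (0.80 each). Among the members, S100a4 and S100a6 correlated at 0.91, S100a11 with S100a6 at 0.89, and Anxa5 at 0.47 to 0.68 with the others. S100a4, S100a6, S100a10 and S100a11 reached 48.2 CPM only in the 3 MHC class II-high sums. Their correlations therefore restate in large part the high level in that class. The sums of a run share a library, and the values are a description.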

How the data were processed

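RNA was counted in 3 droplet libraries. The deposited values are raw UMI counts per gene and barcode, made by the authors with Cell Ranger and the mm10 build per the submitters' processing notes, which also name Seurat 4.0. The file headers give counting software 3.0.2 for run 1 and 3.1.0 for runs 2 and 3, a difference that cannot be told apart from the runs. The members and lists were chosen with earlier results of these data known, and the number of markers a class needs was set after marker counts were seen, without use of the members. UMIs were summed by class and run in Python 3.11.15. edgeR 4.0.16 (R 4.3.3) fitted 27 sums (9 classes with at least 10 cells in each of 3 runs) with TMM scaling, filterByExpr and a term for the run, and p-values were adjusted over 5313 genes by Benjamini-Hochberg. A standard error is the log2 change divided by the square root of the F statistic. The sums of a run come from one library, and deviations of a class correlated with those of other microglia of its run at 0.202 to 0.569 across genes. Genes outside the members were named from lists of other S100 genes, other annexins and partners (counts for each list, values for the 3 largest changes), from class markers, and as the 3 most correlated genes of each tested member. Values of 1 partner gene are not reported here. Of the disease-associated markers 9 of 10 were matched. No doublet caller was run, and cells with Xist and a Y-linked gene were left out as an alternative. Clusters (scanpy 1.11.5, leidenalg 0.10.2) used no S100 or annexin gene, at a resolution of 2 chosen after lower ones were tried. Other alternatives were DESeq2 1.42.0, its size factors, no filter on low counts, no block, only 2 classes in a fit, 1 run left out, 1 more marker, a stricter cell filter, cells thinned to 2000 UMIs and mean CPM per cell. The test script was checked on simulated counts.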

Additional observations from a re-analysis of the deposited data

Results flagged for a closer look

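S100a8 and S100a9 gave a signal in barcodes that no comparison used. Of the 585 barcodes left out by the cell filter, 10 had UMIs of both genes, all in run 1, with 504 S100a8 and 548 S100a9 UMIs in all. They held 502 to 650 UMIs and 184 to 392 genes each, and 3 to 7 of the 16 neutrophil markers. Kept cells had 2 such barcodes.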

How the results depend on the processing

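The call of all 5 tested genes higher in MHC class II-high cells held in every alternative in which that class could be fitted. This is no support by itself. In the main fit S100a4, S100a6, S100a10 and S100a11 passed the filter on low counts only through the sums of that class. With no filter 7 of 9 were called, with 8.36% of all genes. With 4 or fewer microglia markers required the class could not be fitted, since run 1 had 6 such cells, and that restriction was added after seeing the data. Border macrophages had 2 of 5 members called higher (662 of 5313 genes). With no replicate block the count was 1 of 5 (449 of 5313). It was also 1 of 5 with 1 more marker (488 of 5034) and with the stricter cell filter (541 of 4658). It was 3 of 9 with no filter on low counts (990 of 18546) and 3 of 5 with possible doublets left out (787 of 4678). Leaving out a run gave 1 to 2 of 5 (675 of 4647, 457 of 6116 and 382 of 4523 genes without runs 1, 2 and 3). With the restriction to 4 or fewer microglia markers 1 member was tested and 1 called (721 of 4362). Emp3-positive cells had 1 of 5 members called (211 of 5313 genes). It was 0 of 5 with the stricter filter (134 of 4658) and 3 of 7 with clusters (469 of 9017). Leaving out a run gave 0 to 1 of 5 (22 of 4647, 165 of 6116 and 175 of 4523 without runs 1, 2 and 3). Disease-associated cells had 1 of 5 (669 of 5313 genes), and 2 of 9 with no filter on low counts (615 of 18546). With only the class and other microglia in the fit it was 2 of 5 (989 of 11118), and with clusters 2 of 7 (1424 of 9017). Cycling cells had 0 of 5 (774 of 5313 genes), and with clusters 5 of 7 (1275 of 9017). In the cycling cluster run 3 held 22 of 32 Anxa5 UMIs and 1 cell held all 8 Anxa1 UMIs. In Emp3-positive cells the log2 change of S100a10 was -0.18 and reversed to 1.23 with clusters, and that of Cd36, on 3 UMIs, reversed to -2.24 with clusters and -1.91 with the stricter filter. The cause was not tested. Cells with both S100a8 and S100a9 numbered 2, and 12 over all barcodes, 0 after thinning, which leaves out both cells, and 0 to 2 when a run was left out. Of the other single changes of members, 450 kept their side of the threshold and their direction, 9 lost a call and 5 gained one, as did 198, 35 and 0 changes of the related genes. The run block, whose pairing is by library, changed no call of a member other than S100a11 in border macrophages (log2 change 1.95, adjusted p 0.0804 without it). Of the levels, 354 moved by less than the spread between runs and 24 by more, 17 of them after thinning. With 1 more marker the chemokine and immediate early classes could not be fitted, nor the chemokine class with clusters. Depth limits what can be said of a gene at 0 in the small classes, where 3 UMIs are up to 8.44 CPM among those fitted.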
